A study of Rattus norvegicus with 18 samples.

Results

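The 36 genes described here encode the sugar carriers and enzymes of glycolysis, the enzymes of gluconeogenesis, the pentose phosphate route and glycogen turnover, and 4 genes of the response to low oxygen. They were listed by function, and each was represented by the probe set, among those annotated to that single symbol, with the highest mean over all arrays. A probe set was found for 35 of the 36, out of 14218 genes represented in the whole series. The exception was the pyruvate kinase gene Pkm, which is not analysed here. Gapdh was read only by the array's own control probe sets, which are outside the fitted tests, so that 34 members were tested.

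Rats that had received 1 enema of 10 mg TNBS (trinitrobenzene sulfonic acid, a hapten used to cause colitis) in 50% ethanol were sampled on days 2, 5, 7 and 14, with 3 rats at each day, and 6 healthy rats that had received a saline enema formed the control group. RNA of homogenised full-thickness colon was read on 18 Affymetrix rat arrays, 1 per rat. At each time the TNBS rats were chosen by signs of inflammation (myeloperoxidase activity, loss of body weight and colon weight for length), no group received ethanol alone, and no sampling day is given for the controls. Trizol is the extraction entry of the TNBS samples, whereas that of the controls is a technical manual, so that extraction, as labelled, and treatment cannot be told apart. The labels give no strain, sex or age.

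Glycolysis splits glucose into pyruvate in the cytosol with a small yield of ATP and needs no oxygen. Where oxygen is short, the transcription factor subunit encoded by Hif1a escapes degradation and raises transcription of glucose carriers, of most glycolytic enzymes and of lactate export, and activated neutrophils and macrophages also run mainly on glycolysis. The pentose phosphate route branches from glucose 6-phosphate and supplies the NADPH used by the neutrophil oxidase. Colonocytes, by contrast, normally oxidise butyrate made by bacteria.

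All levels below are log2 signals after quantile normalization across the 18 arrays, and all differences are log2 differences on that scale. The arrays as deposited did not share 1 distribution: medians lay between 5.03 and 5.07 in TNBS arrays and between 4.27 and 4.3 in control arrays, and the median probe set was higher by 0.54 to 0.59 on each TNBS day than in control. A member was said to rise or fall where limma's two-sided test gave a Benjamini-Hochberg adjusted p under 0.05 over all 31042 probe sets after quantile normalization, and also with the same sign on the deposited values. The second condition removed no member's rise against control and, counted over the 4 days, 3 of the members' 6 falls. Markers of colon epithelium and smooth muscle were among the brightest probe sets of the control arrays (Krt19 averaged 13.16 and Epcam 12.42 there). The first day 2 array correlated more closely with the day 14 arrays (mean r 0.987) than with its own group (0.970), and so did the first day 5 array (0.984 against 0.980).

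A minority of the members changed, and they were spread over the routes. Against control, 9 of 34 members rose and 1 fell on day 2, where 9.13% of all probe sets (11.4% of genes, taken with 1 probe set each) rose and 0.522% (0.724%) fell. On day 5, 12 rose and 1 fell, against 12.1% (14.7%) and 1.09% (1.43%) of all. On day 7, 10 rose and 1 fell, against 12.4% (14.7%) and 1.07% (1.53%). On day 14, 2 rose and none fell on both scales, against 5.61% (6.4%) and 0.135% (0.176%). On that day 9 members, 3 higher and 6 lower, had an unadjusted p under 0.05 after quantile normalization. The share of all probe sets at that unadjusted threshold was not computed. On the quantile scale alone 1, 2, 2 and 1 members were lower on days 2, 5, 7 and 14, where 10.7%, 16.5%, 18.7% and 6.37% of genes were. Over the 4 days, 12 members rose on at least 1 day, 1 fell, and 21 were called on none. The shares of all genes called on at least 1 day or on none were not computed, so these counts are not read against the series. The median change of the members was -0.01, 0.11, 0.08 and -0.09 on days 2, 5, 7 and 14, against -0.01, -0.02, -0.04 and -0.02 over all probe sets.

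Fewer members were called on day 14 than on day 7, and Hk2 and Taldo1 were still called on day 14. Between days 7 and 14 no member was higher and 3 were lower (Slc16a3, Slc2a3 and Hif1a), against 1.07% (1.55%) of all probe sets (genes) higher and 2.77% (4.04%) lower, and the median member change was -0.19, against 0.03 over all probe sets. No member differed between days 5 and 2, where 4 had an unadjusted p under 0.05 and the smallest adjusted p was 0.255, with 0.00644% (0.0141%) of all higher and 0% lower. None differed between days 7 and 5, where 3 had an unadjusted p under 0.05 and the smallest adjusted p was 0.623, with 0.0161% (0.0141%) higher and 0% lower. For both pairs of days the shares are of calls on both scales. Shares at an unadjusted p were not computed, so the unadjusted counts have no matching share. Among the 4 TNBS days compared by F test, without the controls, 1 member differed, Slc16a3 (limma adjusted p = 0.00913), where 2.11% (3.14%) of all did. Of the day means, the highest fell on day 5 for 15 members and on day 7 for 9, and the lowest on day 14 for 21 of the 34. These counts include the 21 members called on no day. The matching shares of all genes were not computed, so no course particular to the members is read from them. The map shows the differences by member.

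**Figure D1:**
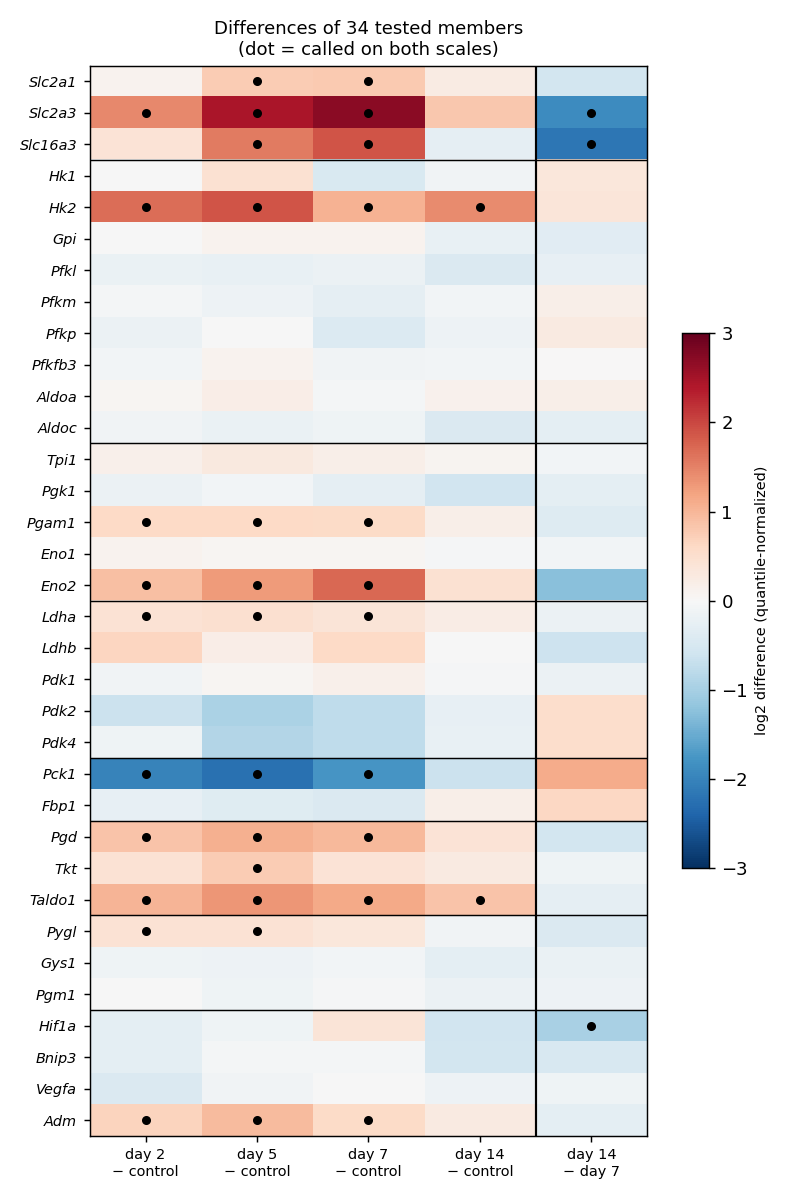
Log2 difference of each tested member (rows, grouped by role) on TNBS days 2, 5, 7 and 14 from control and on day 14 from day 7 (columns), coloured from lower (blue) to higher (red), with a dot on differences called on both scales. Red is densest on days 5 and 7 in the carriers and the pentose phosphate enzymes, Pck1 is the member with dots on falls from control, and 2 members, Hk2 and Taldo1, have a dot for day 14 against control.

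Upstream sequence is shown for 6 members that differ in what they did, because the factor built on Hif1a binds the letters ACGTG or GCGTG. Ldha, Slc2a1 and Eno2 rose and hold such letters within the 250 bases before the annotated start, Slc16a3 rose and had the largest difference between days 14 and 7 but holds none, Bnip3 holds 4 and was called on no day, and Pck1 fell and holds none. Capitals mark the letters on either strand, so that CACGT and CACGC are matches on the other strand. The palindrome CACGTG is counted once on each strand, so that 2 of the 4 matches of Bnip3 overlap. The windows are RefSeq promoters of build GRCr8 written along each gene's strand. They lie at chr1:106507842-106508091 (plus strand, Ldha), chr5:138002272-138002521 (plus, Slc2a1), chr4:159267221-159267470 (minus, Eno2), chr10:106712078-106712327 (plus, Slc16a3), chr1:203154963-203155212 (minus, Bnip3) and chr3:182348322-182348571 (plus, Pck1).
Ldha: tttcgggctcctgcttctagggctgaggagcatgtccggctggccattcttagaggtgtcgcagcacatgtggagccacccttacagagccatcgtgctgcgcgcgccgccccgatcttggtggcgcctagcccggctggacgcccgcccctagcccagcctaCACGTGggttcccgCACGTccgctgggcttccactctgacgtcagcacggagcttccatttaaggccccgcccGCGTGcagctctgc
Slc2a1: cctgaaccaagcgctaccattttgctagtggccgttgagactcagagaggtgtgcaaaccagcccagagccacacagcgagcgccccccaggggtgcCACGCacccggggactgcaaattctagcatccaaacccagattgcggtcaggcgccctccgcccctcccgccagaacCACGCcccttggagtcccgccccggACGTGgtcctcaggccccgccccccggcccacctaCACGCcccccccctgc
Eno2: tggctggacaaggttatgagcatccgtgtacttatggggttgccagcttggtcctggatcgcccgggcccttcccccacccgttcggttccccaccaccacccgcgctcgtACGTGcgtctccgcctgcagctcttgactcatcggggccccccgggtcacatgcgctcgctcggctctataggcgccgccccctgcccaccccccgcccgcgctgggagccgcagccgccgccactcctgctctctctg
Slc16a3: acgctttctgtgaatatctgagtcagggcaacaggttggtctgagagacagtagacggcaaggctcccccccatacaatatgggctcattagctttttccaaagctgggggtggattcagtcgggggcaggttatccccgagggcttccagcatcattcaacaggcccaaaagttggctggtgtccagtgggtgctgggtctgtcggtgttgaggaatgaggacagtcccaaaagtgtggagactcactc
Bnip3: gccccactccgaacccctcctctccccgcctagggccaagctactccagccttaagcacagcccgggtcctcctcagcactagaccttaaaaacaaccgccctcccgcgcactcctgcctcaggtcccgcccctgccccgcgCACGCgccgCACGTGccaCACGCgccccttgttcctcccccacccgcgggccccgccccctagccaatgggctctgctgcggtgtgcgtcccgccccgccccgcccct
Pck1: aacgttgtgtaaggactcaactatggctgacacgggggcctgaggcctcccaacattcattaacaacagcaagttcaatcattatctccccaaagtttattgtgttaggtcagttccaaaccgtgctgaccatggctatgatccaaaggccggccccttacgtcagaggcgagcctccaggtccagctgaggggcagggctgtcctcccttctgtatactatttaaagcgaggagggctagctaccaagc

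A window was found for 34 of the 36 members, and none for Slc2a3 and Pgk1. Of the 34, 21 (61.8%) hold at least 1 match, where 36.7% of all 33469 promoters in the table do. Among members that rose 6 of 11 hold one, and among those called on no day 14 of 20 do. The letters ACGTG also sit inside the E-box CACGTG, bound by other factors, which 5 members and 5.59% of all promoters hold and which is present in the Ldha and Bnip3 windows. A match describes letters only. The members and all promoters were not compared in base composition, and the difference between their shares was not tested.

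All 3 carriers changed. Slc2a1 (GLUT1) and Slc2a3 (GLUT3, the high-affinity carrier of neurons and leukocytes) bring glucose into cells, and Slc16a3 (MCT4) exports lactate from glycolytic cells. Each rose on days 5 and 7, Slc2a3 alone was called on day 2, and none was called on day 14. Slc2a3 read 4.43, 5.73 and 4.93 in the day 2 rats, 5.32, 7.13 and 5.63 in the day 5 rats, 7.46, 5.59 and 5.82 in the day 7 rats and 4.59, 4.26 and 4.35 in the day 14 rats, against 3.33 to 3.79 (median 3.60) in control. Every TNBS array lay above every control array, day 14 included, and rats of the same day differed widely on days 2, 5 and 7. The differences were 1.44 ± 0.40 (SE; adjusted p = 0.0197), 2.44 ± 0.40 (0.000464) and 2.71 ± 0.40 (0.000167) on days 2, 5 and 7, the last a 6.54-fold difference, and 0.81 ± 0.40 on day 14 (0.209).

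Slc16a3 read 7.01, 8.24 and 7.97 in the day 2 rats, 8.30, 9.46 and 8.86 in the day 5 rats, 10.06, 8.62 and 8.98 in the day 7 rats and 7.04, 7.13 and 7.00 in the day 14 rats, against 7.00 to 7.54 (median 7.36) in control. Days 5 and 7 lay wholly above control, day 2 had 1 array inside the control range, and all day 14 arrays lay at its lower end. The lactate exporter rose by 1.55 ± 0.30 on day 5 (adjusted p = 0.00165) and by 1.89 ± 0.30, or 3.72-fold, on day 7 (0.00032). Slc2a1 read 9.04, 9.16 and 8.86 in the day 2 rats, 9.39, 10.00 and 9.65 in the day 5 rats, 9.90, 9.68 and 9.54 in the day 7 rats and 9.24, 9.29 and 8.94 in the day 14 rats, against 8.54 to 9.27 (median 8.94) in control. Its day 5 and 7 arrays were all above control, with differences of 0.76 ± 0.16 (0.00279) and 0.79 ± 0.16 (0.00189), and days 2 and 14 overlapped control.

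On day 14 the lactate exporter and the GLUT3 gene were lower than on day 7. The day 14 minus day 7 difference was -2.16 ± 0.35 for Slc16a3 (adjusted p = 0.00307) and -1.90 ± 0.46 for Slc2a3 (0.0293), with no overlap of arrays, and -0.55 ± 0.19 for Slc2a1 (0.115). Of these, the Slc16a3 call held without any of the 6 arrays in turn. The Slc2a3 call was lost without day 7 replicate 1 (difference -1.31, adjusted p = 0.151) and without each day 14 array (0.0671 to 0.1002). The Slc2a3 rise on day 2 was lost without day 2 replicate 2 (1.10, 0.127) or 3 (1.49, 0.0597), and the other carrier rises held throughout. The dimmer probe set of Slc2a3 was called higher by 0.41, 0.39 and 0.65 on days 2, 5 and 7. On day 14 against day 7 that set differed by -0.35 and was not called (limma adjusted p = 0.177). The plot of members by array shows the spread within days.

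**Figure D2:**
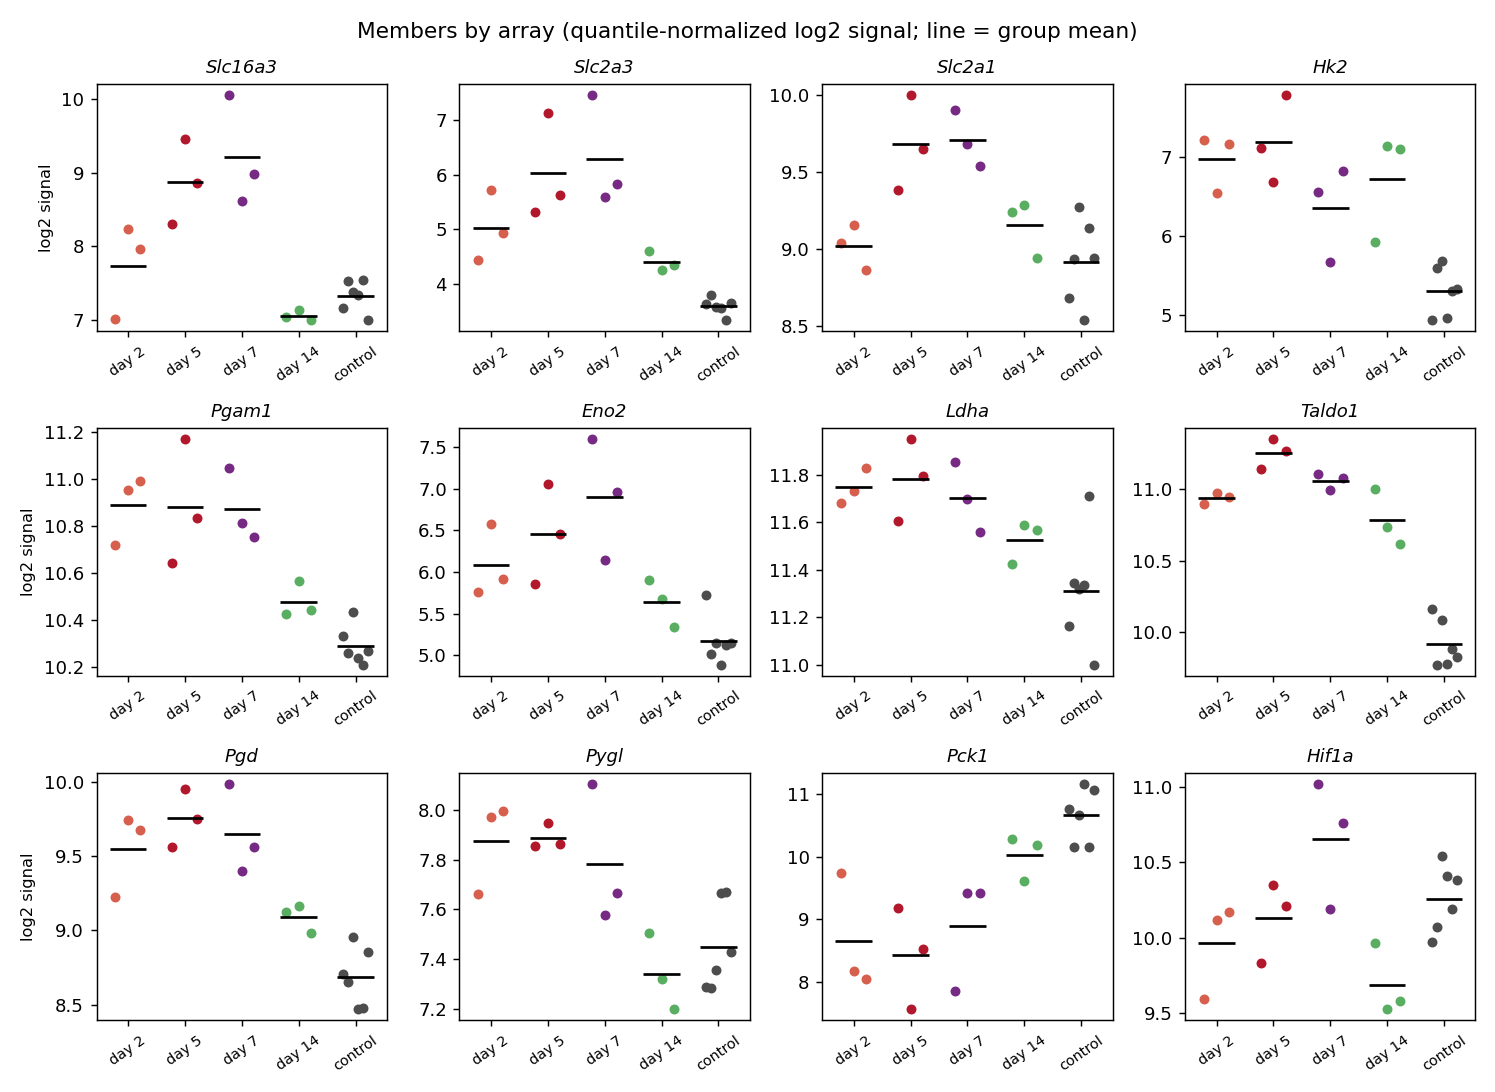
Log2 signal after quantile normalization (vertical axis) of selected members, 1 point per array, on TNBS days 2, 5, 7 and 14 with control at the right (3 rats per TNBS day, 6 control rats), with a bar at each group mean. Slc2a3 lies above control in every TNBS array, Slc16a3 returns to the control range on day 14, Pck1 lies below control on days 2, 5 and 7, and Taldo1 lies above control on all days.

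Markers of neutrophils, macrophages, vessels and fibroblasts were high on the days when the carriers were, and those of lymphocytes and smooth muscle followed another course. Averaged over its 3 genes, the carrier group stood 0.22, 1.10 and 0.65 above the control mean in the day 2 arrays, 1.06, 2.26 and 1.44 in those of day 5, 2.53, 1.36 and 1.51 in those of day 7 and 0.16 to 0.35 in those of day 14. The 8 measured of 10 neutrophil markers stood 1.45, 3.72 and 3.31 above it in the day 2 arrays, 3.32, 4.51 and 3.29 in those of day 5, 4.93, 3.80 and 4.07 in those of day 7 and 0.57 to 1.19 in those of day 14, and 6, 7, 7 and 2 of them rose. Control arrays lay between -0.13 and 0.14 for the carriers and between -0.16 and 0.11 for the neutrophil markers. The array with the highest carrier level of days 2, 5 and 7 was in each case also the array with the highest neutrophil, endothelial and fibroblast levels. It had the highest macrophage level on days 2 and 5 and the lowest on day 7. Macrophage markers (11 of 12 measured) stood 0.80 to 2.01, 1.71 to 2.54, 2.07 to 2.46 and 0.04 to 0.81 above the control mean on days 2, 5, 7 and 14, and endothelial markers (7 of 8) 0.20 to 0.56, 0.63 to 2.12, 0.87 to 2.08 and -0.07 to 0.28. Fibroblast markers (9 of 9) stood -0.07 to 0.83, 0.59 to 1.43, 1.38 to 1.68 and -0.15 to 0.64 above it, and epithelial markers (12 of 14) -0.75 to 0.10, -0.65 to 0.05, -1.05 to -0.12 and 0.17 to 0.25. T cell markers (8 of 8) stood -0.39 to 2.47, 0.17 to 0.98, 0.20 to 0.49 and 0.26 to 1.35 above the control mean on those days, where control arrays lay between -0.25 and 0.60. B and plasma cell markers (5 of 8) stood at -0.87 to 2.47, -1.33 to 0.60, -0.88 to 0.52 and 0.19 to 2.55, where control arrays lay between -0.61 and 2.00. The third day 2 array held the highest level of its day for both lymphocyte lists. Smooth muscle markers (10 of 10) stood at -0.84 to 0.09, -1.13 to -0.50, -0.63 to -0.07 and -0.76 to -0.26, where control arrays lay between -0.24 and 0.23, and 3, 5, 2 and 3 of them fell. The part of these cell types in the results on the members was not tested. Changes in the number of cells of a type and in RNA per cell cannot be told apart in homogenised tissue.

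**Figure D3:**
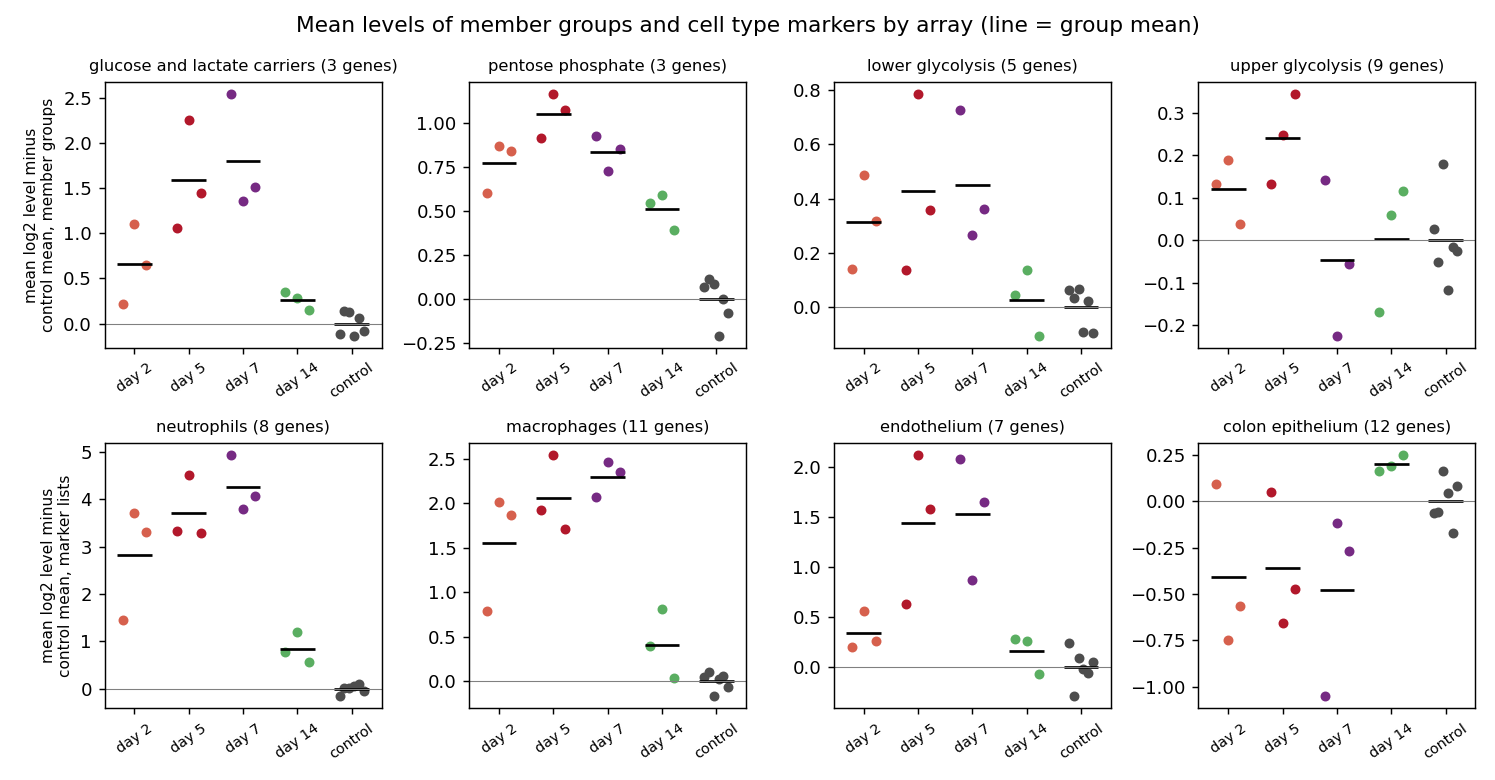
Mean log2 level of 4 groups of members (top row) and 4 lists of cell type markers (bottom row), 1 point per array, relative to the control mean (vertical axis), on TNBS days 2, 5, 7 and 14 with control at the right. Lines are group means. The carriers and the neutrophil, macrophage and endothelial markers are high on days 5 and 7 and lower on day 14, whereas the pentose phosphate enzymes stay 0.40 to 0.60 above control on day 14.

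In upper glycolysis, which commits glucose to breakdown, 1 of 9 members changed. This was Hk2, the inducible hexokinase that phosphorylates glucose at the mitochondrial surface, which rose on all 4 days. Hk2 read 7.21, 6.54 and 7.16 in the day 2 rats, 7.11, 6.68 and 7.79 in the day 5 rats, 6.56, 5.67 and 6.82 in the day 7 rats and 5.92, 7.14 and 7.10 in the day 14 rats, against 4.93 to 5.68 (median 5.31) in control. All TNBS arrays but 1 lay above the control range, the exception being day 7 replicate 2, just inside it. The differences were 1.68, 1.90, 1.05 and 1.42 (each ± 0.31; adjusted p = 0.00193, 0.000516, 0.0202 and 0.00819), or 3.72-fold on day 5. The day 7 call was lost without day 7 replicate 1 (0.0866) or 3 (0.119), and the day 14 call without day 14 replicate 2 (0.0639) or 3 (0.0549).

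The remaining upper members were called on no day. Hk1, the constitutive hexokinase, differed from control by -0.45 to 0.46, with intervals (95%) as wide as -0.18 to 1.09 on day 5. Its dimmer tested probe set differed by 0.01 to 0.24 and was not called. The array's control probe sets of Hk1, which were not tested, differed by 0.48 to 0.76 (middle), 0.22 to 0.42 (nearer the 5 prime end) and -0.34 to 0.15 (3 prime end). Gpi, which turns glucose 6-phosphate into fructose 6-phosphate, differed by -0.22 to 0.12. The phosphofructokinase subunits Pfkl, Pfkm and Pfkp, which carry the rate-setting step, differed by -0.43 to -0.18, -0.26 to -0.07 and -0.41 to -0.02. Of the dimmer probe sets of Pfkm, 1 was lower on all 4 days after quantile normalization alone (by -0.63 to -0.50) and 1 differed by 0.35 to 0.47 without a call. The aldolases Aldoa and Aldoc differed by -0.05 to 0.19 and -0.43 to -0.11.

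Pfkfb3, which makes the sugar bisphosphate that activates phosphofructokinase, gave different answers by probe set. The brightest, used here, differed from control by -0.10 to 0.10. The second brightest set was called higher by 1.48, 1.57 and 2.34 on days 2, 5 and 7 and lower by -1.80 on day 14 against day 7, with means of 5.47, 5.56, 6.33 and 4.53 on days 2, 5, 7 and 14, against 3.99 in control. The dimmest set was lower on day 5 after quantile normalization (by -0.33, limma adjusted p = 0.00888) but higher on that day as deposited (0.00503). The sets of a gene can read different parts or forms of its transcript, and which of them follows the gene's total was not tested.

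In lower glycolysis, where ATP is made, 2 of 5 tested members rose, on days 2, 5 and 7. Pgam1, which moves the phosphate of phosphoglycerate, read 10.72, 10.96 and 11.00 in the day 2 rats, 10.64, 11.17 and 10.84 in the day 5 rats, 11.05, 10.82 and 10.75 in the day 7 rats and 10.43, 10.57 and 10.44 in the day 14 rats, against 10.21 to 10.44 (median 10.26) in control. Its arrays of days 2, 5 and 7 all lay above control, by a small and even margin of 0.60, 0.59 and 0.58 (each ± 0.11; adjusted p = 0.00128, 0.000884 and 0.000849), or 1.51-fold on day 2. With each array centred on its median instead, the differences were 0.18, 0.11 and 0.18 and none was called.

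Eno2, the enolase isoform known from neurons and also a target of the low-oxygen factor, read 5.76, 6.58 and 5.92 in the day 2 rats, 5.86, 7.06 and 6.45 in the day 5 rats, 7.60, 6.15 and 6.97 in the day 7 rats and 5.91, 5.68 and 5.34 in the day 14 rats, against 4.89 to 5.72 (median 5.13) in control. Days 2, 5 and 7 lay above the control range and day 14 overlapped it. It rose by 0.91 ± 0.30 (adjusted p = 0.0429), 1.28 ± 0.30 (0.00513) and 1.73 ± 0.30 (0.000563), and the day 14 minus day 7 difference of -1.26 ± 0.34 missed the threshold (0.0506). Its day 2 call was lost without 7 of the 9 arrays in turn (adjusted p up to 0.222). The 11 measured markers of enteric neurons and glia stood between -0.59 and 0.11 of the control mean in all TNBS arrays, and 1, 0, 0 and 0 of them rose on days 2, 5, 7 and 14. The ubiquitous isoform Eno1 differed by -0.03 to 0.10, with the widest interval from -0.19 to 0.39 on day 2.

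The other members of lower glycolysis were not called. Tpi1, triosephosphate isomerase, differed by 0.08 to 0.28. Pgk1, which makes the first ATP of the route, differed by -0.57 ± 0.12 on day 14 after quantile normalization (adjusted p = 0.00498) but by -0.22 (0.0998) as deposited, and its second brightest probe set was called higher by 1.04, 0.90 and 0.81 on days 2, 5 and 7. Gapdh averaged 12.14 ± 0.02, 12.18 ± 0.05, 12.14 ± 0.07 and 12.12 ± 0.09 on days 2, 5, 7 and 14 (SD, n = 3), against 12.02 ± 0.15 in control (n = 6). Exact two-sided permutation tests gave p = 0.238, 0.143, 0.214 and 0.429, of which the smallest is 0.317 after adjustment over the 4, and 0.0238 was the smallest this design allows. Its probe set nearer the 5 prime end differed by -0.50 to -0.31, its middle set by 0.27 to 0.39 and the set used by 0.10 to 0.16. The sets of Gapdh thus moved in different directions. Of the control probe sets of Hk1, by contrast, the set nearer the 5 prime end differed by 0.22 to 0.42 and the 3 prime set by -0.34 to 0.15. Whether RNA quality or labelling differed between TNBS and control arrays, which would bear on every difference from control, was not tested.

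At the fate of pyruvate, 1 of 5 members rose. Ldha, the lactate dehydrogenase subunit that favours lactate formation, read 11.68, 11.73 and 11.83 in the day 2 rats, 11.60, 11.95 and 11.79 in the day 5 rats, 11.85, 11.70 and 11.56 in the day 7 rats and 11.43, 11.59 and 11.57 in the day 14 rats, against 11.00 to 11.71 (median 11.33) in control. Every day overlapped the control range. The differences of 0.43 ± 0.12 (adjusted p = 0.023), 0.47 ± 0.12 (0.0108) and 0.39 ± 0.12 (0.0268) on days 2, 5 and 7 are at most 1.38-fold. With median centring they were 0.01, -0.005 and -0.09, so that the sign turned on days 5 and 7. The calls were also lost without day 2 replicate 2 (0.0679) or 3 (0.103), day 5 replicate 2 (0.0742), and day 7 replicate 1 (0.135) or 2 (0.0652).

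The partner subunit Ldhb differed by 0.63 ± 0.25 on day 2 and 0.61 ± 0.25 on day 7 (adjusted p = 0.0881 and 0.0813). The pyruvate dehydrogenase kinases close the entry of pyruvate into mitochondria, and none was called. Pdk1, a target of the low-oxygen factor, differed by -0.11 to 0.15 on its brightest probe set (mean level 5.93). A second set, nearly as bright (5.89), averaged 5.73 ± 0.13, 5.50 ± 0.19, 5.55 ± 0.28 and 5.63 ± 0.37 on days 2, 5, 7 and 14 (SD, n = 3), against 6.47 ± 0.13 in control (SD, n = 6). It was lower on all 4 days after quantile normalization (by -0.75, -0.97, -0.92 and -0.84, with limma adjusted p = 0.00272, 0.000256, 0.000294 and 0.00172) but not as deposited (0.608, 0.396, 0.604 and 0.817), so the sets of Pdk1 gave different answers on the quantile scale. Pdk4, raised by fasting and fatty acids, differed by -0.87 to -0.13. Its dimmer set was lower on all 4 days after quantile normalization (by -0.49 to -0.37). As deposited, that set was instead higher on days 2, 5 and 14 (limma adjusted p = 0.00327, 0.00736 and 0.0112) and not called on day 7 (0.0656). Pdk2 differed by -0.96 ± 0.23 on day 5 (0.00588) and -0.75 ± 0.23 on day 7 (0.0215) after quantile normalization, but by -0.17 and 0.04 as deposited.

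Gluconeogenesis held the 1 member that fell. Pck1 makes phosphoenolpyruvate from oxaloacetate, the step that commits carbon to new glucose or glycerol. Pck1 read 9.74, 8.18 and 8.05 in the day 2 rats, 9.19, 7.56 and 8.53 in the day 5 rats, 7.86, 9.41 and 9.42 in the day 7 rats and 10.28, 9.61 and 10.18 in the day 14 rats, against 10.15 to 11.16 (median 10.71) in control. All 9 arrays of days 2, 5 and 7 lay below every control array, and 2 of the 3 day 14 arrays lay inside the control range. It fell by 2.00 ± 0.43 (adjusted p = 0.005), 2.23 ± 0.43 (0.00158) and 1.76 ± 0.43 (0.00673), or 4.70-fold on day 5, and differed by -0.64 ± 0.43 on day 14 (0.381). The day 7 call was lost without day 7 replicate 1 (difference -1.24, adjusted p = 0.0617). Fbp1, the fructose bisphosphatase of the same route, differed by -0.43 to 0.18 and was not called. The day 2 and day 5 arrays with the highest Pck1 level (9.74 and 9.19) had epithelial markers at 0.10 and 0.05 above the control mean, the highest of their days. The lowest levels of both were in the same array on day 5 and on day 7 (7.86 for Pck1 and -1.05 for the markers). The highest levels were in different arrays on days 7 and 14, and the lowest were in different arrays on days 2 and 14. The part of the epithelium in the Pck1 difference was not tested.

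As in the carriers, all 3 members of the pentose phosphate route rose. Taldo1, the transaldolase of its non-oxidative arm, read 10.90, 10.97 and 10.94 in the day 2 rats, 11.14, 11.35 and 11.26 in the day 5 rats, 11.10, 11.00 and 11.07 in the day 7 rats and 11.00, 10.73 and 10.62 in the day 14 rats, against 9.77 to 10.16 (median 9.85) in control. No TNBS array reached the control range on any day, and the rats of days 2, 5 and 7 lay close together. Its differences of 1.02, 1.33, 1.14 and 0.87 (each ± 0.10; adjusted p = 1.09e-05, 8.44e-07, 2.91e-06 and 6.95e-05) had the smallest adjusted p of all members on each day, and the largest was 2.52-fold.

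Pgd, which makes NADPH in the oxidative arm, read 9.23, 9.74 and 9.67 in the day 2 rats, 9.56, 9.95 and 9.75 in the day 5 rats, 9.98, 9.40 and 9.56 in the day 7 rats and 9.12, 9.16 and 8.98 in the day 14 rats, against 8.47 to 8.95 (median 8.68) in control. All TNBS arrays lay above control, those of day 14 by a narrow margin. It rose by 0.86, 1.07 and 0.96 on days 2, 5 and 7 (each ± 0.15; adjusted p = 0.0011, 0.000145 and 0.000244) and differed by 0.40 on day 14 (0.0931). Tkt, the transketolase, averaged 10.21, 10.52, 10.17 and 10.04 on days 2, 5, 7 and 14, against 9.77 in control, and rose on day 5 by 0.75 ± 0.16 (0.00244). With median centring the Tkt difference was 0.33 and not called (0.0939). The calls on Taldo1, Pgd and Tkt held without any array in turn.

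Glycogen members changed little. Pygl, the glycogen phosphorylase of liver and leukocytes, read 7.66, 7.97 and 7.998 in the day 2 rats, 7.86, 7.95 and 7.86 in the day 5 rats, 8.11, 7.58 and 7.66 in the day 7 rats and 7.50, 7.32 and 7.20 in the day 14 rats, against 7.28 to 7.67 (median 7.39) in control. Only day 5 lay wholly above control. It rose by 0.43 ± 0.13 on day 2 (adjusted p = 0.0283) and by 0.44 ± 0.13 on day 5 (0.018), and neither held with median centring (0.0921 and 0.0563). The day 2 call was also lost without control replicate 1 (0.0508) or 2 (0.0501) or day 2 replicate 2 (0.118) or 3 (0.134), and the day 5 call without day 5 replicate 2 (0.076). The synthase gene Gys1 and the phosphoglucomutase gene Pgm1 differed by -0.28 to -0.09 and -0.17 to -0.01.

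Of the 4 genes of the low-oxygen response, 1 was called against control. Hif1a, whose protein is controlled mainly by degradation and not by transcript level, read 9.60, 10.12 and 10.17 in the day 2 rats, 9.84, 10.35 and 10.21 in the day 5 rats, 11.02, 10.19 and 10.76 in the day 7 rats and 9.96, 9.53 and 9.58 in the day 14 rats, against 9.97 to 10.54 (median 10.29) in control. Day 7 reached above the control range in 2 of 3 arrays and day 14 lay below it in all 3, 1 of them narrowly. The day 14 minus day 7 difference was -0.96 ± 0.22 (adjusted p = 0.0193), while neither day was called against control (0.40 ± 0.19 on day 7, adjusted p = 0.132, and -0.57 ± 0.19 on day 14, 0.0618). The call between days was lost without day 7 replicate 1 (0.119) or 3 (0.0682) and without day 14 replicate 2 (0.0788) or 3 (0.0878).

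Adm encodes adrenomedullin, a peptide that widens vessels and is raised by low oxygen and by cytokines. It averaged 5.09 ± 0.09, 5.36 ± 0.27, 5.00 ± 0.32 and 4.70 ± 0.15 on days 2, 5, 7 and 14 (SD, n = 3), against 4.42 ± 0.35 in control (n = 6), and rose by 0.67 ± 0.19 (limma adjusted p = 0.0211), 0.94 ± 0.19 (0.0019) and 0.58 ± 0.19 (0.0292) on days 2, 5 and 7. Arrays of day 7 overlapped control. The day 2 call was lost without day 2 replicate 2 (0.0565) or 3 (0.0908), and the day 7 call without control replicate 3 (0.0526) or 6 (0.0557) or day 7 replicate 1 (0.166) or 3 (0.0884). Vegfa, the vessel growth factor and a standard target of the low-oxygen factor, differed by -0.43 to -0.01, with an interval of -0.38 to 0.35 on day 7, and its dimmer second probe set by 0.31 to 0.51, with neither called. Bnip3, the mitophagy receptor induced by low oxygen, differed by -0.54 to -0.05 and was not called.

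Related genes outside the 36 were counted from lists by function. Of 21 measured targets of the low-oxygen factor outside glycolysis (25 listed), 5, 8, 9 and 1 rose on days 2, 5, 7 and 14 and none fell against control on both scales, and 6 fell between days 7 and 14. The shares of all genes that rose on those days were 11.4%, 14.7%, 14.7% and 6.4%, and 0.724%, 1.43%, 1.53% and 0.176% fell. Between days 7 and 14, 1.55% of genes rose and 4.04% fell. After quantile normalization alone 10.7%, 16.5%, 18.7% and 6.37% were lower on the 4 days, so the rule of both scales leaves few falls in any list. The same shares apply to the lists below. The median change of the 21 was -0.10, -0.14, -0.01 and 0.10, with 10, 10, 10 and 13 of them above 0, and 1, 4, 1 and 0 were lower on the quantile scale alone. The haem-degrading enzyme Hmox1, which oxidative stress also induces, differed by 2.87, 3.47, 3.28 and -0.32 (each ± 0.34) on days 2, 5, 7 and 14, the lipid droplet coat gene Plin2 by 1.31, 2.48, 2.74 and 0.33 (each ± 0.32), and the collagen crosslinking enzyme Lox by 0.99, 2.71, 3.26 and 0.65 (each ± 0.45). All 3 rose on days 5 and 7, and on day 14 all 3 were lower than on day 7 (by -3.61, -2.41 and -2.60). Of 8 measured oxygen-sensing genes (9 listed) 1, 2, 2 and 1 rose and none fell on both scales. Among these Egln1, the main prolyl hydroxylase that marks the Hif1a protein for degradation, rose by 0.37, 0.30 and 0.38 on days 2, 5 and 7 (each ± 0.10).

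Of 15 measured genes of pyruvate and lactate use (16 listed), 0, 1, 2 and 1 rose and 1, 3, 2 and 0 fell on days 2, 5, 7 and 14. Between days 7 and 14, 5 of the 15 rose, where 1.55% of all genes did. Slc16a1 (MCT1), which in the colon carries butyrate as well as lactate, differed by -1.09, -0.91, -1.38 and -0.30 (each ± 0.21), was called lower on days 2, 5 and 7 and rose by 1.08 ± 0.25 between days 7 and 14 (adjusted p = 0.0202). Its direction was opposite to that of the exporter Slc16a3 on days 5 and 7 and between days 7 and 14. Of 4 measured further pentose phosphate genes (6 listed) 1 rose on every day, Pgls, the lactonase of the oxidative arm, by 1.55, 1.27, 1.45 and 1.46 (each ± 0.17).

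Of 10 measured other glycolytic enzymes (14 listed), 0, 1, 1 and 1 rose and 0, 1, 1 and 0 fell. Pfkfb4, a testis-type relative of Pfkfb3 induced by low oxygen, rose by 1.12, 1.10 and 1.24 on days 5, 7 and 14 (each ± 0.21), and Minpp1, an inositol phosphatase that also acts on bisphosphoglycerate, fell by 0.90 and 1.15 on days 5 and 7 (each ± 0.18). Of 7 further genes of gluconeogenesis (10 listed) 1, 1, 0 and 1 rose and 0, 0, 1 and 0 fell, among them the coactivator gene Ppargc1a, which fell by 2.01 ± 0.43 on day 7. Of 8 other glucose carriers (11 listed) Slc2a4, the insulin-responsive carrier, fell by 1.76 ± 0.37 on day 5 and Slc2a6 rose by 1.17 ± 0.28 on day 7, with no other call. Of 12 further glycogen genes (15 listed) none rose on days 2, 5 and 7 and 0, 1 and 1 fell, the branching enzyme Gbe1 by 1.30 ± 0.19 on day 5 and the phosphorylase Pygb by 1.22 ± 0.18 on day 7.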

How the data were processed

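Total RNA of full-thickness rat colon was hybridised to Affymetrix rat genome arrays. Per the labels' design text, the authors normalized with affyPLM, a Bioconductor package. The deposited values were taken as log2 signals because of their range. Not given in the sources used here are the software version, the log base, how background was treated and whether controls and TNBS arrays were normalized in 1 run. Raw array files were not used, and the table held 0 columns of samples outside the 18.

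The arrays were quantile normalized over all 31099 probe sets in R 4.3.3 with limma 3.58.1, which removes any change shared by most genes. Tests left out the 57 control probe sets of the array, and limma fitted 1 coefficient per group to the 31042 others with its default empirical Bayes prior (13 residual degrees of freedom), with two-sided tests and Benjamini-Hochberg adjustment over all of them. Calls needed an adjusted p under 0.05 there and, with the same sign, in the same fit of the deposited values. SE is limma's moderated standard error, and intervals are 95%. Gene names are those of the platform annotation, in which 20826 of the tested probe sets have 1 symbol, 436 several and 9780 none. Gapdh was tested by exact permutation (Python 3.11.15, scipy 1.17.1). Precision is limited by the few arrays. The limma p-values set each difference against the spread between rats within groups, pooled over the groups and moderated. They cover neither the choice of TNBS rats by signs of inflammation nor the extraction entry that goes with treatment.

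Every array is shown for members ranked 8 or better among members in the F test among TNBS days or against control, or called on day 14 against day 7, plus Ldha as an example of its role. Up to 3 genes per related list are named, by the F test against control. The members, lists and tests were chosen with earlier results of these data known. The fit was tested on simulated data.

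Alternatives were each scale alone, median centring, leaving out the lowest 50% of probe sets, trend and robust empirical Bayes, only the 2 groups compared, a block for the replicate number, the mean of a gene's probe sets, testing 1 probe set per gene, a threshold of 0.01, and omission of each array.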

Additional observations from a re-analysis of the deposited data

Results flagged for a closer look

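Among the 35 members' control groups, 2 held an array far from the other 5, where chance gives about 1 in 20: the lowest control level of Pgk1 was 11.13 and the highest of Eno2 was 5.72. Without the array of that lowest level (control replicate 6) Pgk1 was called lower on day 14 (-0.63, adjusted p = 0.00209).

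The difference from control itself differed between days 14 and 7 for 3 members: by -1.90 for Slc2a3, -2.16 for Slc16a3 and -0.96 for Hif1a.

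Probe sets that the one-set-per-gene rule left aside were called higher for 3 members: the dimmer set of Slc2a3 by up to 0.65 (day 7), the second brightest of Pfkfb3 by up to 2.34 (day 7) and the second brightest of Pgk1 by up to 1.04 (day 2). For Slc2a3 the set used rose on the same days, and for Pfkfb3 and Pgk1 it was not called.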

How the results depend on the processing

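Counts below are members called, beside 9, 12, 10 and 2 higher and 1, 1, 1 and 0 lower on days 2, 5, 7 and 14 against control and 3 lower on day 14 against day 7. The deposited values alone, on which the median probe set was higher by 0.54 to 0.59 on each day, gave 25, 27, 27 and 24 higher. Quantile normalization alone gave 2, 2 and 1 lower on days 5, 7 and 14. Median centring, under which the median probe set was lower by -0.22 to -0.17 on each day, gave 9, 7, 7 and 6 lower. For the deposited values alone and for median centring, the share of all probe sets called was not computed. Those counts are therefore not read as results about the members. Without the lowest 50% of probe sets 2 members differed among TNBS days. Fitting only the 2 groups gave 4 higher on day 14, and 1 lower against day 7. Arrays of different groups share only a number: of 30 same-numbered pairs, 13 had deviations correlated above 0.1 (r from -0.33 to 0.47). With the replicate number as a block, 0 members were lower on day 7, 1 was lower on day 14 against day 7 and 0 differed among TNBS days. The mean of a gene's probe sets gave 5 lower on day 14 against day 7. At adjusted p under 0.01, 4 rose on day 2 and 1 was lower on day 14 against day 7. Leaving out 1 array in turn gave 4 to 10 higher on day 2 (4 without day 2 replicate 2 or 3), 10 to 12 on day 5, 7 to 12 on day 7 (7 without day 7 replicate 1) and 1 to 2 on day 14 (1 without day 14 replicate 2 or 3). It gave 0 to 1 lower on day 7 (0 without day 7 replicate 1) and on day 14 (1 without control replicate 6), 1 to 5 lower on day 14 against day 7 (1 without day 7 replicate 1 or day 14 replicate 2 or 3, and 5 without day 7 replicate 2) and 1 to 4 differing among TNBS days (2 without day 5 replicate 1 or 2, and 4 without day 7 replicate 2). Signs turned for Pdk2 on day 7 as deposited (0.0362) and for Ldha on days 5 and 7 with median centring (-0.00487 and -0.0856). In refits of single member differences without 1 array, 328 stayed on their side of the threshold and 41 no longer passed it. Dim levels, such as that of Slc2a3 in control (median 3.60), lie below the arrays' median of 4.79, and how much of them is background was not tested.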
